A study of Mus musculus with 16 samples.

Results

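The osteoclast differentiation genes described here are Tnfrsf11a, Oscar, Nfatc1, Dcstamp, Ocstamp, Acp5, Ctsk and Atp6v0d2, 8 of the 20200 genes in the deposited table, taken by name as genes known for osteoclast formation and function, with earlier results of these data known. They were followed through the bulk RNA-seq of 4 myeloid populations flow-sorted from the interface tissue around the tendon graft after anterior cruciate ligament reconstruction (ACLR) in 12-week-old male C57BL/6J mice without any genetic change. The populations, all CD11b+, were Ly6G- F4/80+ CD9+ macrophages (CD9+), Ly6G- F4/80+ CX3CR1+ macrophages (CX3CR1+), Ly6G- F4/80- myeloid cells and Ly6G+ neutrophils. Each was sorted on days 1 and 14 after surgery in 2 libraries, 16 libraries in 8 groups, and every animal had been operated on, so no group from uninjured tissue enters the comparisons. Each library is a pool of several mice, and the rare cells positive for both CD9 and CX3CR1 fell into the CD9+ sort. The labels only number the 2 libraries of a group. The p-values measure the spread between libraries of a group, estimated over all genes and groups. Populations of a day shared pools, so the 16 libraries are not 16 separate sets of mice, though the main model treated them as independent.

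All 8 are protein-coding genes, placed by the deposited table on mm10 at chr1:105780718-105847981 (Tnfrsf11a), chr7:3609813-3616157 (Oscar), chr18:80606205-80713071 (Nfatc1), chr15:39745930-39760938 (Dcstamp), chr2:165393760-165400405 (Ocstamp), chr9:22126727-22135711 (Acp5), chr3:95499256-95509362 (Ctsk) and chr4:19876841-19922605 (Atp6v0d2).

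Osteoclasts are multinucleated cells that resorb bone and arise by fusion of precursors of the monocyte and macrophage lineage. The cytokine RANKL, encoded by Tnfsf11, binds its receptor RANK on these precursors, and together with costimulation through receptors such as OSCAR this leads to activation of NFATc1, the master transcription factor of osteoclastogenesis. NFATc1 in turn drives genes for cell fusion, such as Dcstamp, Ocstamp and Atp6v0d2, and genes for resorption, such as Ctsk and Acp5. Several of these genes are also expressed by macrophages that are not osteoclasts.

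Promoter windows were read for 4 of the 8 genes (Acp5, Ctsk, Tnfrsf11a and Oscar) from RefSeq sequences on GRCm38.p6, the build to which mm10 belongs, as the 250 bases before each annotated start. The windows were searched on both strands for TGGAAA (NFAT core), GAGGAA (PU.1), TGANTCA (AP-1), CACGTG (MITF E-box) and CATGTG (MITF M-box core). Of the 6 entries, 3 of them for Acp5, 3 held none of these letters, namely the 2 upstream entries of Acp5 and that of Tnfrsf11a. The other 3 are shown because they hold matches, with the matched letters in capitals, 5′ to 3′ on the strand of the gene. A match on the other strand appears as its reverse complement.
Ctsk, plus strand, chr3:95498960-95499209: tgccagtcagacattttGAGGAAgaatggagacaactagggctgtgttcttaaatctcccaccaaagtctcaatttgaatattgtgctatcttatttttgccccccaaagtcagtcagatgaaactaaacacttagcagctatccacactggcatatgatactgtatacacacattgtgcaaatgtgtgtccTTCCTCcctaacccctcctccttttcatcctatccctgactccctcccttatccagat
Acp5, minus strand, chr9:22130599-22130848: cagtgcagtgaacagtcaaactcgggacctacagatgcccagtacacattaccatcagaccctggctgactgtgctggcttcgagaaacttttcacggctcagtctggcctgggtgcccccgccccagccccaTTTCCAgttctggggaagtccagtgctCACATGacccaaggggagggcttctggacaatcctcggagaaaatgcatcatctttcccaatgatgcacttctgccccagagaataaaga
Oscar, minus strand, chr7:3616158-3616407: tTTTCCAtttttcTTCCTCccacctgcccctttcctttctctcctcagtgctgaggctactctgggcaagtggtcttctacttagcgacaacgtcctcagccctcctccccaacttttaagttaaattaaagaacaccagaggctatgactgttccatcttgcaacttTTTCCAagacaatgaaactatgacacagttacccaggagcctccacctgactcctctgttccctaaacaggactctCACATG
The Ctsk window held GAGGAA 2 times, 233 and 58 bases before the start. The Acp5 window held TGGAAA 117 bases and CATGTG 90 bases before the start. In the Oscar window TGGAAA lay 249 and 82 bases, GAGGAA 237 bases and CATGTG 6 bases before the start, and no match overlapped another. Over the 32851 windows of the reference table, 18.6% held TGGAAA, 23.3% GAGGAA, 6.75% TGANTCA, 6.02% CACGTG and 12.3% CATGTG, so such matches are common and are given as a description of the letters alone.

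The libraries held between 9233952 and 19814119 counts on genes, and values are given as counts or as CPM, counts scaled to one library size with TMM factors. The 2 libraries of CD9+ macrophages on day 1 were the least alike of any group, with a Pearson correlation of log2 CPM across genes of 0.935 against 0.976 to 0.988 in the other groups. Adgre1, which encodes F4/80, had 120 to 217 CPM in the CD9+ libraries and 143 to 184 in the CX3CR1+ libraries, against 8.43 to 13.8 in F4/80- cells. Markers of other cells differed between the sorts as well. All 4 eosinophil markers on a hand-written list (Prg2, Epx, Siglecf and Ccr3) were higher in CD9+ than in CX3CR1+ macrophages on both days, and 3 of the 4 were higher in CD9+ macrophages on day 14 than on day 1. Their summed level was 491 to 562 CPM in CD9+ macrophages on day 1 and 5826 to 9400 on day 14. It was 17.0 to 46.0 on day 1 and 43.0 to 76.1 on day 14 in CX3CR1+ macrophages, and 26.7 to 116 in F4/80- cells and 35.8 to 51.2 in neutrophils over both days, and none of the 4 markers was at 0 in both libraries of a group. Against CX3CR1+ macrophages, 6 of 8 neutrophil markers were also higher in CD9+ macrophages on each day, while 1 was lower on day 1 and 2 on day 14. The summed level of all 8 was 4137 to 16522 CPM against 475 to 1093. Likewise higher in CD9+ macrophages were 4 of 4 basophil and mast cell markers (45.1 to 144 against 0 to 0.928), both tested B and plasma cell markers and 2 of 3 platelet markers. Of 6 macrophage markers, 0 were called between CD9+ and CX3CR1+ macrophages on day 1. On day 14, 3 were higher in CD9+ macrophages, with overlapping summed levels (883 to 1345 against 1189 to 1288 CPM). All 6 were higher in CD9+ macrophages than in F4/80- cells on both days. Against neutrophils 5 were higher on day 1 and 6 on day 14. The part of such cells and of the macrophage markers in the differences given below was not tested, and in bulk RNA fewer cells of a type and less RNA per cell cannot be told apart. With 2 libraries against 2 the smallest two-sided p of an exact permutation test is 0.333, and the tests therefore rest on the spread shared by all genes and groups.

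Of the 8 genes, 7 passed the filter of a mean of at least 3 CPM in at least 1 group and were tested with edgeR. Oscar did not, its highest group mean being 0.856 CPM before scaling. Dcstamp passed through day 14 CD9+ macrophages alone, with a mean of 3.68 CPM there and 0.918 or less in every other group. Its calls for that group, and its part in the counts below, therefore rest on the group that admitted it.

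Tnfrsf11a encodes RANK, the receptor through which RANKL acts. On day 1 it had 40.1 and 80.9 CPM in the CD9+ libraries, 43.0 and 54.7 in the CX3CR1+ libraries, 6.10 and 4.90 in F4/80- cells and 2.77 and 2.37 in neutrophils. On day 14 it had 32.7 and 63.2 CPM in CD9+ macrophages, 20.9 and 25.3 in CX3CR1+ macrophages, 3.71 and 5.55 in F4/80- cells and 1.45 and 0.823 in neutrophils. Both macrophage populations thus stood above F4/80- cells and neutrophils on each day, without overlap. The 2 macrophage populations overlapped on day 1 and not on day 14.

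Between CD9+ and CX3CR1+ macrophages the log2 fold change of Tnfrsf11a was 0.30 on day 1 (SE 0.32, adjusted p = 0.574), and its direction turned to -0.29 without replicate 2 of day 1 CD9+ macrophages. On day 14 it was 1.05 (SE 0.33, adjusted p = 0.0286), just past the thresholds of an adjusted p of 0.05 and an absolute log2 fold change of 1. That call was lost with the replicate number as a block (0.999) and without any of 3 of the 4 libraries, with a lowest value of 0.487 without replicate 2 of day 14 CD9+ macrophages. Against F4/80- cells the CD9+ level of Tnfrsf11a was higher by 3.45 on day 1 (SE 0.36, adjusted p = 6.3e-06) and by 3.38 on day 14 (SE 0.38, adjusted p = 1.6e-05), and higher in CX3CR1+ macrophages by 3.15 and 2.32.

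Oscar encodes a costimulatory receptor that binds collagen. It had 4 and 0 counts in day 1 CD9+ macrophages, 9 and 7 counts in day 14 CD9+ macrophages and 1 and 0 counts in day 14 F4/80- cells. The other 10 libraries held 0 counts, so outside CD9+ macrophages a single read was seen. The level in the other populations was set at 3 counts in each library, the limit that a count of 0 allows. The day 14 mean of Oscar in CD9+ macrophages lay 2.91-fold above this limit in CX3CR1+ macrophages and 2.35-fold above it in neutrophils. Such limits cover counting error in the lower group only, and that of the CD9+ counts is not covered. When all genes were tested without the filter, the difference between CD9+ and CX3CR1+ macrophages on day 14 had an adjusted p of 0.133.

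Among other genes of this axis, Tnfsf11, which encodes RANKL itself, lay between 0 and 0.779 CPM over all 16 libraries and was not tested, and Tnfrsf11b, which encodes the decoy receptor osteoprotegerin, was not analysed here. Csf1r, the receptor for M-CSF, averaged 758 ± 257 CPM (SD, n = 2) at day 1 and 447 ± 103 at day 14 in CD9+ macrophages, and 915 ± 49.2 and 791 ± 33.9 in the CX3CR1+ population. Traf6, an adaptor that links RANK to NF-kB, had group means between 40.3 and 101 CPM.

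Nfatc1 was the only one of the 8 genes with over 100 CPM in every library. It had 156 and 188 CPM in CD9+ macrophages at day 1 and 135 and 171 at day 14, 144 and 152 in CX3CR1+ macrophages at day 1 and 152 and 162 at day 14. In F4/80- cells it had 101 and 114 at day 1 and 104 and 117 at day 14, and in neutrophils 257 and 273 at day 1 and 268 and 297 at day 14. Neutrophils were therefore highest and F4/80- cells lowest on both days, with the macrophages between them.

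Nfatc1 passed both thresholds in F4/80- cells against neutrophils, where it was lower by a log2 fold change of -1.30 on day 1 (SE 0.14) and of -1.35 on day 14 (SE 0.14). With scaling by library size only, these values became -0.69 and -0.79 and fell short of the fold threshold, while that scaling moved the median of all genes by 0.61 and 0.56 in these comparisons. Between CD9+ and CX3CR1+ macrophages Nfatc1 had log2 fold changes of 0.21 on day 1 (SE 0.14, adjusted p = 0.340) and -0.03 on day 14 (SE 0.14, adjusted p = 0.899).

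**Figure D1:**
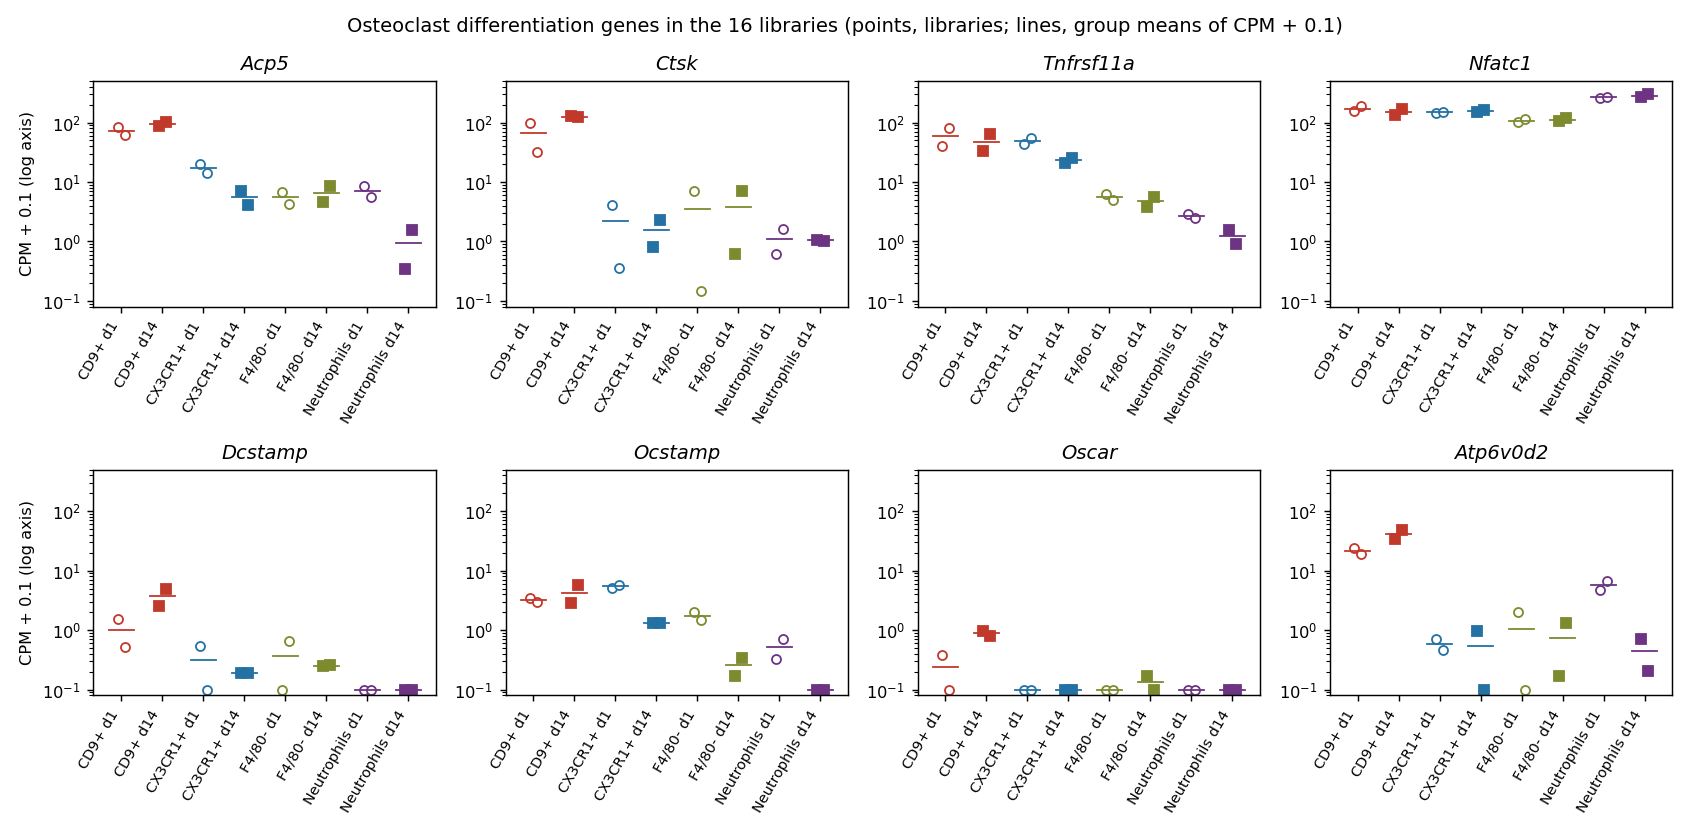
CPM plus 0.1 on a log axis (vertical) of the 8 genes in the 8 groups (horizontal, d1 and d14 for days 1 and 14). Open circles are day 1 libraries, filled squares day 14 libraries and lines the group means, and Acp5, Ctsk and Atp6v0d2 lie higher in all 4 CD9+ libraries than in any other library, while Nfatc1 lies over 100 CPM in each library.

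Dcstamp and Ocstamp encode membrane proteins needed for the fusion of osteoclast precursors. Dcstamp had 20 and 4 counts in day 1 CD9+ macrophages and 26 and 48 in those of day 14. It had 10 and 0 counts in day 1 CX3CR1+ macrophages, 0 and 12 in day 1 F4/80- cells, 1 or 2 in each day 14 library of these populations, and 0 in all 4 neutrophil libraries. It was highest in day 14 CD9+ macrophages, whose libraries overlapped with no other group, whereas day 1 CD9+ macrophages overlapped with day 1 F4/80- cells and day 1 CX3CR1+ macrophages.

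Since the other populations held so few counts of Dcstamp, its differences are given against 3 counts in each library. Day 14 CD9+ macrophages lay 13.6-fold above this level in CX3CR1+ macrophages, whose libraries had 1 count each. The fold against F4/80- cells, at 2 counts each, was 15.9. As these libraries were not at 0, neither fold is a bound. In neutrophils, at 0, the mean of Dcstamp in CD9+ macrophages lay 10.99-fold above the limit on day 14 and 3.76-fold above it on day 1. The call against day 14 CX3CR1+ macrophages (adjusted p = 0.0191) was lost without either of the CX3CR1+ libraries (adjusted p = 0.123 and 0.124), and the call against day 14 F4/80- cells (adjusted p = 0.0437) in each of the 3 fits that left out 1 library and still tested the gene, with library size only, without the filter and with the block. The day 1 call against neutrophils was lost without replicate 1 of CD9+ macrophages or either neutrophil library.

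Ocstamp had a different order. It had 5.01 and 5.75 CPM in day 1 CX3CR1+ macrophages, 3.39 and 2.85 in day 1 CD9+ macrophages, 1.95 and 1.37 in day 1 F4/80- cells and 0.225 and 0.614 in day 1 neutrophils. On day 14 it had 2.78 and 5.58 CPM in CD9+ macrophages, 1.22 and 1.21 in CX3CR1+ macrophages, 0.0727 and 0.245 in F4/80- cells and 0 in both neutrophil libraries. CX3CR1+ macrophages were thus the highest on day 1 and CD9+ macrophages on day 14.

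Compared with CX3CR1+ macrophages, the log2 fold change of Ocstamp in the CD9+ population was -0.78 on day 1 (SE 0.53, adjusted p = 0.362) and 1.77 on day 14 (SE 0.58, adjusted p = 0.0359). The day 14 call was lost with the block (adjusted p = 0.0576), without the filter on CPM (adjusted p = 0.0605), and without replicate 2 of CD9+ macrophages (adjusted p = 0.275) or either CX3CR1+ library (adjusted p = 0.153 and 0.165). Against F4/80- cells on day 14, at 1 and 3 counts, Ocstamp in CD9+ macrophages lay 18.1-fold above 3 counts in each library. As these libraries were not at 0, this fold is no bound. Against day 14 neutrophils, at 0, Ocstamp in CD9+ macrophages lay 12.5-fold above the limit of 3 counts in each library.

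Acp5 and Ctsk are genes of resorption, and Atp6v0d2 was named above with the genes for fusion. Their levels alone do not show mature osteoclasts in a sort. Acp5 encodes tartrate-resistant acid phosphatase, the histochemical marker of osteoclasts. It had 82.9 and 62.2 CPM in CD9+ macrophages at day 1 and 87.5 and 104 at day 14, 19.9 and 14.1 in CX3CR1+ macrophages at day 1 and 6.88 and 3.99 at day 14. F4/80- cells had 6.83 and 4.17 at day 1 and 4.51 and 8.41 at day 14, and neutrophils had 8.55 and 5.44 at day 1 and 0.241 and 1.44 at day 14. All 4 CD9+ libraries exceeded all 12 others.

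Acp5 was higher in CD9+ than in CX3CR1+ macrophages by a log2 fold change of 2.09 on day 1 (SE 0.35, adjusted p = 8.7e-04) and of 4.13 on day 14 (SE 0.40, adjusted p = 2.1e-06). The difference from F4/80- cells was 3.72 on day 1 and 3.89 on day 14, and against neutrophils 3.37 and 6.75. These 6 calls held without any single library and under every other setting tried, with values from 6.04 to 8.58 against day 14 neutrophils when 1 library was left out.

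Ctsk encodes cathepsin K, the protease that degrades bone collagen. Its counts were 1402 and 304 in day 1 CD9+ macrophages and 1347 and 1210 in those of day 14, and CPM were 99.1 and 32.1 at day 1 and 129 and 123 at day 14. Outside CD9+ macrophages the highest value was 6.93 CPM. There too the 2 libraries of a group often stood apart, with 90 and 5 counts in day 1 CX3CR1+ macrophages, 142 and 1 in day 1 F4/80- cells, 7 and 84 in day 14 F4/80- cells and 8 and 24 in day 14 CX3CR1+ macrophages. Neutrophils had 7 and 17 counts at day 1 and 8 and 9 at day 14.

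On day 1, replicate 1 exceeded replicate 2 by 3.09-fold in CD9+ macrophages (95% interval from the counts 2.73 to 3.51) and by 15.1-fold in CX3CR1+ macrophages (6.25 to 47.7), both with exact binomial intervals that cover counting error only. Col1a1, a marker of stroma, had 3.75 and 1.27 CPM in these CD9+ libraries and 0.747 and 0.627 in the CX3CR1+ libraries, and the 6 analysed stromal and osteoblast markers together had 30.3 to 51.5 CPM over these 4 libraries, with Sp7 at 0. On day 14 Col1a1 had 14.1 and 17.2 CPM in the CD9+ libraries and 1.74 and 35.2 in the CX3CR1+ libraries. Of 4 tested stromal and osteoblast markers, 1 was called higher in CD9+ than in CX3CR1+ macrophages on day 14. Over time 1 rose in CD9+ macrophages and 1 in CX3CR1+ macrophages. The part of these markers in the spread and the differences of Ctsk was not tested.

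Ctsk was higher in CD9+ than in CX3CR1+ macrophages by 4.91 on day 1 (SE 1.12, adjusted p = 0.00781) and by 6.44 on day 14 (SE 1.27, adjusted p = 0.00134). The day 1 call was lost without replicate 2 of CX3CR1+ macrophages (4.04, adjusted p = 0.0839), and the value ranged from 3.86 without replicate 1 of CD9+ macrophages to 7.92 without replicate 1 of CX3CR1+ macrophages. The day 14 value ranged from 5.81 to 7.47 without replicate 1 or replicate 2 of CX3CR1+ macrophages, and the call was lost without either pool of day 14 (adjusted p = 0.119 and 0.0646). Ctsk was also higher than in F4/80- cells, by 4.25 on day 1 (SE 1.07) and 5.13 on day 14 (SE 1.13). The day 1 value ranged from 3.21 without replicate 1 of CD9+ macrophages to 10.2 without replicate 1 of F4/80- cells, which left a group with 1 count. The day 14 value ranged from 4.18 without replicate 1 of F4/80- cells, where the call was lost (adjusted p = 0.0940), to 7.90 without replicate 2, and the call was also lost without either pool of day 14 (adjusted p = 0.294 and 0.151). Against neutrophils it was higher by 6.06 and 7.05.

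Atp6v0d2 encodes the d2 subunit of the vacuolar proton pump, which is enriched in osteoclasts. It had 23.7 and 19.1 CPM in CD9+ macrophages at day 1 and 33.9 and 47.6 at day 14. CX3CR1+ macrophages had 0.615 and 0.366 at day 1 and 0.871 and 0 at day 14, F4/80- cells 1.90 and 0 at day 1 and 0.0727 and 1.22 at day 14, and neutrophils 4.72 and 6.58 at day 1 and 0.602 and 0.103 at day 14. Day 1 neutrophils thus stood above the other non-CD9+ groups, though below CD9+ macrophages.

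Compared with CX3CR1+ macrophages, the log2 fold change of Atp6v0d2 in the CD9+ population was 5.404 on day 1 (SE 0.97, adjusted p = 0.00150) and 6.48 on day 14 (SE 1.07, adjusted p = 3.1e-04), and both calls held in every setting tried. The size of the day 14 value rested on single libraries, since it was 12.1 without replicate 1 of CX3CR1+ macrophages, which left a group at 0 counts and so is no bound, and 5.52 without replicate 2. The value against F4/80- cells was 4.50 on day 1 (SE 0.91) and 6.01 on day 14 (SE 1.01). The day 1 value was 11.1 without replicate 1 of F4/80- cells, again against 0 counts, and 3.47 without replicate 2. For day 14 these fits gave 5.03 and 8.94. The day 14 call was lost without the day 14 pool of replicate 1 (adjusted p = 0.0636). The value against neutrophils was 1.93 on day 1 (SE 0.78, adjusted p = 0.0398) and 6.89 on day 14 (SE 1.15). The day 1 difference from neutrophils was no longer called by DESeq2 (adjusted p = 0.330) or without replicate 1 of CD9+ macrophages or either neutrophil library (adjusted p up to 0.158). Its widely expressed paralogue Atp6v0d1 had group means from 82.3 to 182 CPM and log2 fold changes between CD9+ and CX3CR1+ macrophages of -0.16 on day 1 (SE 0.14) and 0.14 on day 14 (SE 0.14), neither of them called.

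Counted over the tested genes, 3 of 7 were called higher in CD9+ than in CX3CR1+ macrophages on day 1 and 6 of 7 on day 14. The others were not called. The 6 include Dcstamp, which passed the filter through day 14 CD9+ macrophages alone. In the same comparisons 6.36% and 9.65% of all 11998 tested genes were called higher. The median log2 fold change of the 7 genes was 2.01 on day 1 and 4.13 on day 14, against 0.04 and 0.01 over all tested genes. The day 14 count fell to 3 without replicate 2 of CD9+ macrophages or either CX3CR1+ library, and then comprised Acp5, Ctsk and Atp6v0d2. It was 2 (Acp5 and Atp6v0d2) when either pool of day 14, that is all libraries of one replicate number, was left out.

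Against F4/80- cells, 4 of 7 were called higher in CD9+ macrophages on day 1 and 6 of 7 on day 14, where 9.23% and 6.59% of all genes were called higher. The day 14 count was 2 and 3 without the pools of replicate 1 and replicate 2. Against neutrophils 6 of 7 were called higher on each day, where the background was 27.9% and 29.6%. Nfatc1, the gene not called, was lower in CD9+ macrophages, short of the fold threshold. Its edgeR values were -0.63 on day 1 (SE 0.14, adjusted p = 9.6e-04) and -0.88 on day 14 (SE 0.14, adjusted p = 5.0e-05). Scaling by library size only moved the median of all genes by 0.33 and 0.50 in these comparisons. CX3CR1+ macrophages exceeded F4/80- cells in 3 of 7 on day 1 and 2 of 7 on day 14 (background 10.2% and 11.1%). Against neutrophils, CX3CR1+ macrophages were higher in 3 of 7 and lower in 1 (Atp6v0d2) on day 1, with backgrounds of 26.9% and 24.1%, and higher in 3 of 7 on day 14 (27.1%). F4/80- cells were higher than neutrophils in 2 of 7 and lower in 2 on day 1 (26.4% and 22.6%), and higher in 2 and lower in 1 on day 14 (27.4% and 21.3%).

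**Figure D2:**
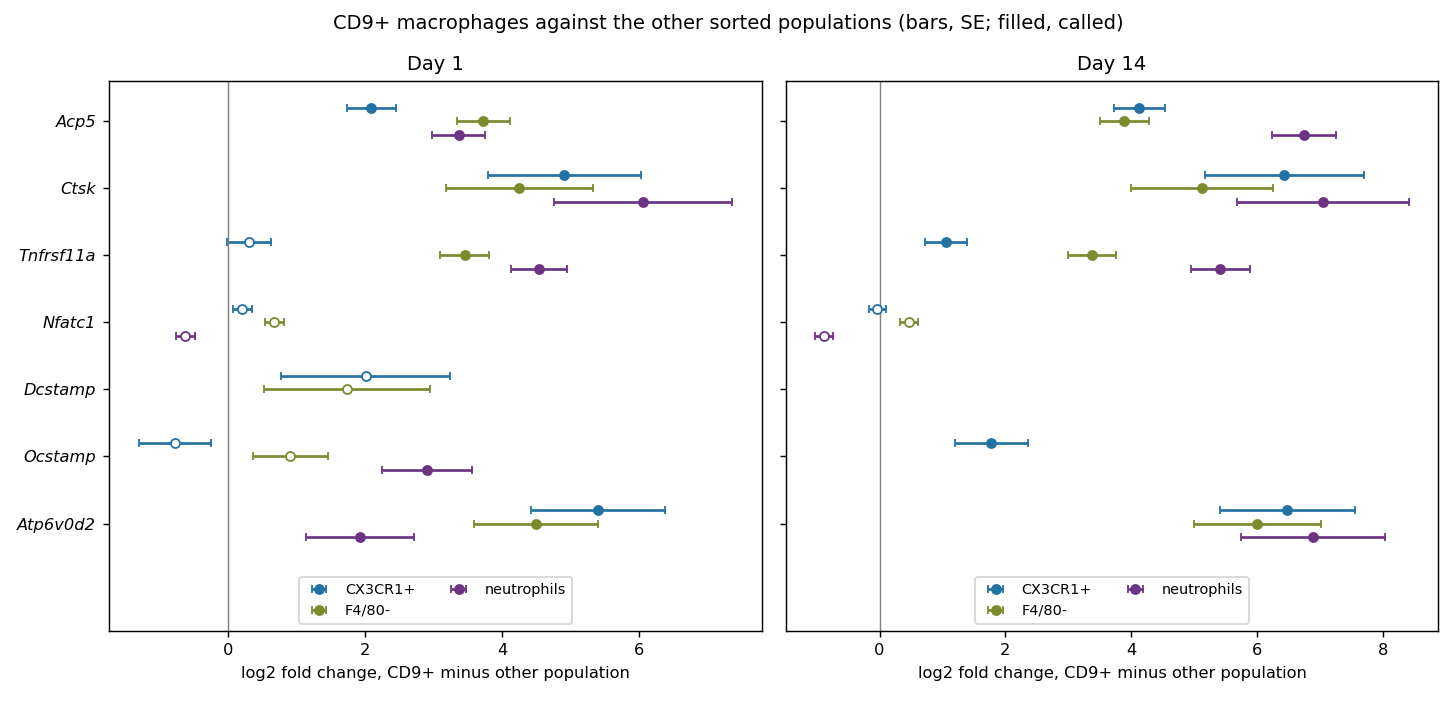
Log2 fold changes (horizontal) of the 7 tested genes in CD9+ macrophages against CX3CR1+ macrophages, F4/80- cells and neutrophils on days 1 and 14, with bars of 1 SE and filled points for called genes. The 6 values set against groups with 3 counts or fewer in each library are not drawn, and Acp5, Ctsk and Atp6v0d2 lie to the right of 0 in all 6 comparisons.

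From day 1 to day 14, 0 of the 7 genes were called in CD9+ macrophages with edgeR or DESeq2, and with either tool 0 had an unadjusted p under 0.05, while 8.23% of all genes were called. The largest values were 1.94 for Dcstamp (SE 1.08, adjusted p = 0.242), 0.93 for Ctsk (SE 0.90, adjusted p = 0.515) and 0.93 for Atp6v0d2 (SE 0.73, adjusted p = 0.418). Acp5 had 0.39 (SE 0.34, adjusted p = 0.455), Ocstamp 0.41 (SE 0.54), Tnfrsf11a -0.33 (SE 0.32) and Nfatc1 -0.16 (SE 0.14). In Acp5, Ctsk, Dcstamp and Atp6v0d2 both day 14 libraries exceeded both day 1 libraries, without a call. Such an order of 2 libraries against 2 shows no rise by itself, and how many of all genes had it was not counted.

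This count depended on the pool of replicate 1 on day 1. When its 4 libraries were left out, a step chosen after seeing the data, 2 of 7 genes were called higher on day 14, Ctsk by 1.97 (SE 0.53, adjusted p = 0.00991) and Dcstamp by 3.09 (SE 0.94, adjusted p = 0.0213). Without the CD9+ library of that pool alone, 0 were called. Without the pool of replicate 2 on day 1 the values were 0.35 for Ctsk and 1.38 for Dcstamp, and 0 were called.

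In CX3CR1+ macrophages 3 of 7 fell over time, where 3.47% of all genes fell. Acp5 changed by -1.64 (SE 0.39, adjusted p = 0.0112), Ocstamp by -2.14 (SE 0.57, adjusted p = 0.0244) and Tnfrsf11a by -1.08 (SE 0.33, adjusted p = 0.0434). Ocstamp and Tnfrsf11a lost the call without any one of the 4 libraries, and Acp5 without replicate 1 of day 1 (-1.37) or replicate 2 of day 14 (-1.30, adjusted p = 0.156). The direction was the same in each of these fits. In the same libraries 3 of 6 macrophage markers fell, their summed level being 1568 to 1662 CPM on day 1 and 1189 to 1288 on day 14, and their part in these falls was not tested.

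In F4/80- cells 1 of 7 fell, namely Ocstamp (adjusted p = 0.0168), where 2.24% of all genes fell. Its day 1 mean lay 7.18-fold above 3 counts in each day 14 library. These libraries held 1 and 3 counts, so this fold is no bound. Leaving out replicate 1 of day 1 or either day 14 library ended this call (lowest adjusted p = 0.0806). In neutrophils 3 of 7 fell, where 10.9% of all genes fell, and Acp5 changed by -2.99 (SE 0.56, adjusted p = 0.00104), a call that held without any single library, at -4.82 without replicate 2 of day 14 and -2.28 without replicate 1. Over the same libraries 4 of 6 macrophage markers (summed level 574 to 587 CPM on day 1 and 181 to 186 on day 14) and 2 of 3 monocyte markers fell, and their part in the falls of these genes was not tested. Atp6v0d2 changed by -4.03 (SE 1.21, adjusted p = 0.0223), which DESeq2 did not call (adjusted p = 0.0824), and Ocstamp went from 3 and 7 counts to 0 (adjusted p = 0.0283), both lost without replicate 2 of day 1 or either library of day 14.

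**Figure D3:**
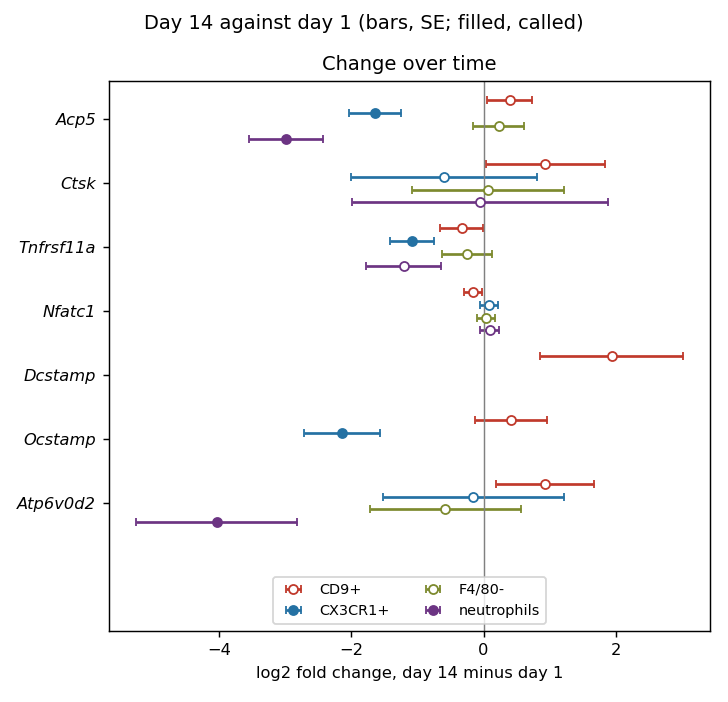
Log2 fold changes from day 1 to day 14 (horizontal) of the 7 tested genes in the 4 populations, with bars of 1 SE and filled points for called genes. The 5 values that involve a group with 3 counts or fewer in each library are not drawn, and Acp5 lies at 0.39 in CD9+ macrophages, at -1.64 in CX3CR1+ macrophages and at -2.99 in neutrophils.

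Whether the populations changed differently was tested with interaction terms. Acp5 was the only one of the 7 genes whose change differed between CD9+ and CX3CR1+ macrophages at an adjusted p under 0.05, by 2.03 (SE 0.51, adjusted p = 0.0465), where 1.47% of all genes had a higher change. This call was lost in 7 of the 8 fits that each left out 1 library, with values from 1.71 to 2.50, and DESeq2 called 2 genes. Against neutrophils 2 of 7 differed (background 7.89%), Acp5 by 3.38 (SE 0.66, adjusted p = 0.00426) and Atp6v0d2 by 4.96 (SE 1.44, adjusted p = 0.0379). Against F4/80- cells 0 of 7 were called by edgeR (background 2.01%), where 1 gene had an unadjusted p under 0.05 and DESeq2 called 1.

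The other genes of the pathway were counted by 7 lists, which were chosen with earlier results of these data known. Between CD9+ and CX3CR1+ macrophages most of their genes were not called. The background called higher here was 6.36% (day 1) and 9.65% (day 14) of 11998 tested genes. A background called lower is not given, so the lower calls named below for this comparison stand without one. Of the 15 other subunits of the vacuolar proton pump, 0 were called by edgeR or DESeq2 on either day, while 3 on day 1 and 7 on day 14 had an unadjusted p under 0.05 with both tools. Among 12 genes of the resorption machinery 2 were higher in CD9+ macrophages on each day, the matrix metalloproteases Mmp9 (5.31 on day 1 and 4.15 on day 14) and Mmp14 (1.40 and 3.17). Mmp9 is also expressed by neutrophils, and 6 of their 8 markers were higher in the same libraries.

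Among 6 ligands and receptors, Csf1, which encodes M-CSF, exceeded its level in CX3CR1+ macrophages by 3.37 (SE 0.24) on day 1 and 3.77 (SE 0.26) on day 14, and Tnf by 1.09 and 1.12. The TNF receptor gene Tnfrsf1b was lower on day 14 by -1.16. Of 13 signalling genes, Src, a kinase needed for the ruffled border of osteoclasts, was higher on both days (2.46 and 5.28), Trem2 was higher (1.34) and Pirb, an inhibitory receptor, lower (-1.15) on day 14. Of 13 transcription factors that promote osteoclastogenesis, Jdp2 was higher on both days (1.16 and 1.86), and on day 14 Myc was higher (1.68) and Fos lower (-1.17).

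Of 9 inhibitors 0 were called on day 1 by edgeR or DESeq2, with 5 and 6 genes at an unadjusted p under 0.05. On day 14 Irf8 (-1.06) and Bcl6 (-1.14), both repressors of osteoclastogenesis, were lower in CD9+ macrophages, and Nfkbia (1.63), which encodes an inhibitor of NF-kB, was higher. Of 9 fusion and adhesion genes Cd81 (1.46) and the integrin Itgb3 (2.89) were higher on day 1 and Cd81 (3.78) and Adam8 (3.35) on day 14.

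Over time in CD9+ macrophages, where 8.23% of all genes were called, 3 of 13 transcription factors, 3 of 9 fusion and adhesion genes and 1 of 13 signalling genes were called. Myc (1.02), Ppargc1b (1.48) and Cd81 (1.25) rose, and Prdm1 (-1.43), Pirb (-1.05), Adam8 (-1.07) and Itgb5 (-1.61) fell. Among the 12 resorption genes and the 15 proton pump subunits 0 were called by edgeR or DESeq2, although 7 of each had an unadjusted p under 0.05 with edgeR and 8 and 7 with DESeq2. The 6 ligands and receptors and the 9 inhibitors also had 0 calls with either tool, with 3 and 5 genes at an unadjusted p under 0.05. In CX3CR1+ macrophages 4 of 9 fusion and adhesion genes and 2 of 12 resorption genes were called over time. So were 2 of 13 signalling genes and 1 of 9 inhibitors. Of all genes 3.47% fell, and a background for rises is not given. Itgb3 (2.69) and Car2 (2.64), which encodes carbonic anhydrase 2, rose, and Adam8 (-3.45), Mmp14 (-2.64), Src (-2.73), Itgb5 (-2.32), Trem2 (-1.38), Nfkbia (-1.29) and Cd81 (-1.07) fell. The 13 transcription factors, 15 proton pump subunits and 6 ligands and receptors had 0 calls with edgeR or DESeq2. Of these, 4, 7 and 0 had an unadjusted p under 0.05 with both tools.

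**Figure D4:**
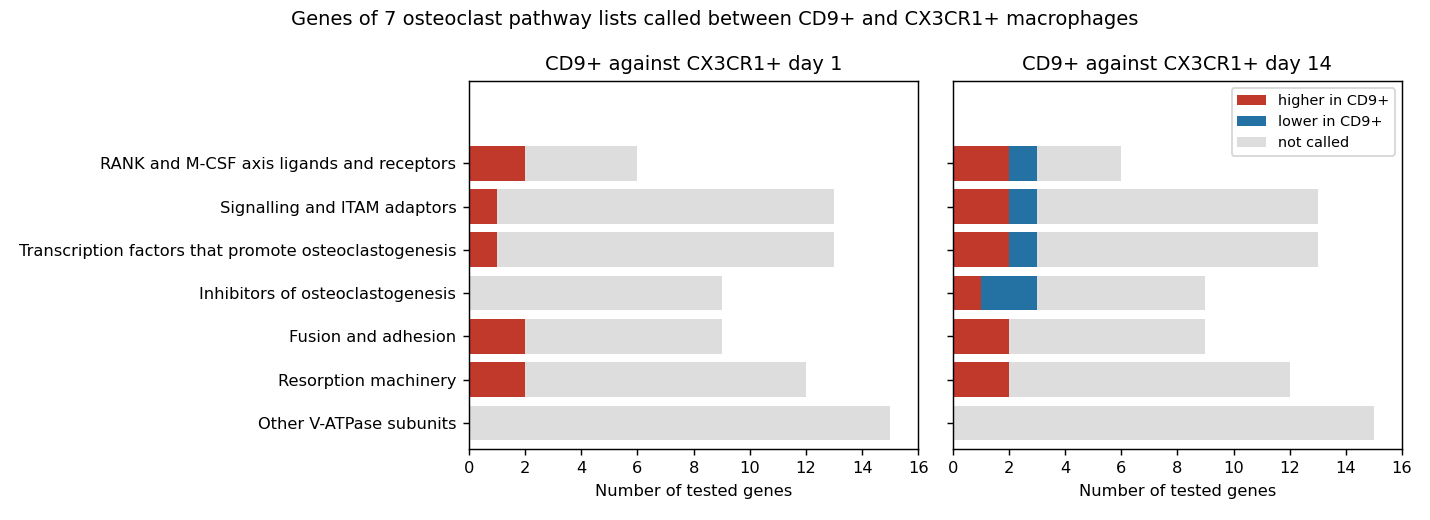
Number of tested genes (horizontal, bars from 0) of the 7 lists called higher, called lower or not called in CD9+ against CX3CR1+ macrophages on days 1 and 14. Resorption machinery has 2 of 12 genes higher on each day and the other proton pump subunits have 0 of 15 called.

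Levels can be set against each other only per length of the gene, here as RPKM, the CPM divided by the exon length in kilobases. In day 14 CD9+ macrophages the order of mean RPKM was Ctsk (83.3 ± 3.10, SD, n = 2), Acp5 (47.1 ± 5.56), Nfatc1 (20.5 ± 3.41), Atp6v0d2 (15.01 ± 3.58), Tnfrsf11a (8.01 ± 3.59), Dcstamp (1.38 ± 0.629), Ocstamp (1.14 ± 0.540) and Oscar (0.426 ± 0.0590). Dcstamp and Ocstamp lay within each other's spread. On day 1 Ctsk had 43.4 ± 31.3 and Acp5 35.8 ± 7.22, and the SD of Ctsk spanned the mean of Acp5.

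Across the 16 libraries, which share populations and pools, the log2 CPM of Tnfrsf11a and Ocstamp had a Pearson correlation of 0.896 and that of Ctsk and Atp6v0d2 of 0.828, while Nfatc1 had -0.119 with Ctsk. The gene most like Acp5 in this measure was Myo1e (0.950), that most like Tnfrsf11a was Tmem106a (0.981) and that most like Nfatc1 was Osbpl11 (0.978), with Csf2ra (0.975) and Fosl2 (0.970) next. Ctsk was most like B3galnt1 (0.884), Atp6v0d2 most like Serpinb2 (0.865) and then Src (0.863), Dcstamp most like Apbb2 (0.928) and then Slc9b2 (0.925), and Ocstamp most like Cttnbp2nl (0.954). These are descriptions over 16 libraries of 4 populations.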

How the data were processed

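Bulk RNA-seq of 4 sorted myeloid populations was analysed, 2 libraries of each on days 1 and 14. According to the methods, the authors trimmed paired-end SMART-Seq Stranded reads (Cutadapt), mapped them (STAR, mm10) and counted reads in Gencode exons, and they deposited these counts per gene without normalization for 20200 genes.

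Genes with a group mean of at least 3 CPM (by library size) in at least 1 of 8 groups were kept (11998), TMM factors were computed on them, and all 16 libraries were fitted in one model with a mean per group (R 4.3.3, edgeR 4.0.16 quasi-likelihood test, Benjamini-Hochberg adjustment over all genes tested). Calls required adjusted p under 0.05 with log2 fold change of 1 or more in size, and for an interaction the adjusted p alone. Log2 CPM used a prior count of 2. Gene positions are those of the deposited table, and exon lengths were the union of exons in Gencode M21 (GRCm38). Total counts per library were 9233952 to 19814119, and 3 counts were taken as the limit that a count of 0 allows, which covers counting error only.

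By the methods, all libraries came from too few mice for each to have a pool of its own, so the populations of a day shared pools, and that libraries with the same number in the labels share one is inferred. Deviations of same-numbered libraries of a day from their group means correlated at 0.0132 to 0.144. The alternatives were DESeq2 1.42.0, other scaling, no filter, a block for replicate numbers within a day, no fold threshold and leaving out each library. Leaving out whole pools and filtering on TMM-scaled CPM were chosen after seeing the data. The latter was the filter first used, before the filter by library size was taken up to match an earlier treatment of these data. It changed no call of these genes. The 8 genes and the lists were chosen with earlier results of these data known. Named list genes were, per list and comparison, the called genes of largest change, up to 3 per direction, besides 5 preset genes. One gene of the lists is not reported here and was left out of the list counts. The steps were tested on simulated counts.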

Additional observations from a re-analysis of the deposited data

Results flagged for a closer look

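The change of Acp5 from day 1 to day 14 differed between CD9+ macrophages and 2 other populations by an interaction term of the model. The difference was 2.03 on the log2 scale (SE 0.51, adjusted p = 0.0465) against CX3CR1+ macrophages and 3.38 (SE 0.66, adjusted p = 0.00426) against neutrophils. The first was lost in 7 of the 8 fits that each left out 1 library and without either pool of day 14 (adjusted p = 0.149 and 0.518), and the second without the day 14 pool of replicate 1 (adjusted p = 0.0542). In both cases Acp5 fell in the other population and was not called in CD9+ macrophages.

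The change of Atp6v0d2 differed between CD9+ macrophages and neutrophils by 4.96 (SE 1.44, adjusted p = 0.0379). DESeq2 did not call it (adjusted p = 0.186), and it was lost in 5 of the 8 fits that each left out 1 library. Eosinophil markers rose in the same CD9+ libraries, while 3 of 6 macrophage markers fell over time in CX3CR1+ macrophages and 4 of 6 in neutrophils. The part of these cells in these differences was not tested.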

How the results depend on the processing

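Of the 60 calls of single genes, none changed direction under any alternative, 38 held in every fit without 1 library and 22 were lost in at least 1. Leaving out a pool, an alternative chosen after seeing the data, lost 26 in at least 1 fit, and 28 calls held under everything tried. Under DESeq2 5 were lost, with scaling by library size only 4, without the filter 2, with the block 3, and with the filter on TMM-scaled CPM or RLE size factors 0. Leaving out a library leaves 1 in its group, which is then assumed to vary like the other groups, and the pool fits leave fewer libraries for the spread. At these depths genes with 3 counts or fewer, such as Oscar outside CD9+ macrophages and Dcstamp outside them on day 14, could not be set apart from 0.

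With the replicate block within each day, Tnfrsf11a (0.999) and Ocstamp (1.69, adjusted p = 0.0576) lost the call between CD9+ and CX3CR1+ macrophages on day 14 and Dcstamp (adjusted p = 0.0639) that against F4/80- cells, and the block changed no other call. The block lies within a day and so pairs nothing across days. Library size only turned the uncalled Nfatc1 to 0.0362 over time in CD9+ macrophages and to -0.0370 against CX3CR1+ macrophages on day 1.

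Counts of called genes moved with the setting. In F4/80- cells against neutrophils on day 1, 2 of 7 were called with library size only, against 4. For the interaction with CX3CR1+ macrophages DESeq2 called 2, against 1, and for that with F4/80- cells DESeq2 and library size only called 1 each, against 0.

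Without 1 library or 1 pool, the number called over time ranged from 0 to 2 in CD9+ macrophages (0 with all libraries), from 0 to 3 in CX3CR1+ macrophages (3), from 0 to 2 in F4/80- cells (1) and from 1 to 3 in neutrophils (3). On day 14 it ranged from 2 to 6 for CD9+ against CX3CR1+ macrophages (6), from 2 to 5 for CD9+ macrophages against F4/80- cells (6) and from 1 to 2 for CX3CR1+ macrophages against F4/80- cells (2), and on day 1 from 2 to 3 for F4/80- cells against neutrophils (4). For the interactions it ranged from 0 to 2 with CX3CR1+ macrophages (1), from 0 to 2 with F4/80- cells (0) and from 0 to 3 with neutrophils (2).

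Values not called that turned direction when a library was left out were, over time in CD9+ macrophages, Tnfrsf11a (-0.87 to 0.26 over the fits), Nfatc1 (-0.34 to 0.0134) and Ocstamp (-0.17 to 0.84), and against CX3CR1+ macrophages Tnfrsf11a on day 1 (-0.29 to 0.73) and Nfatc1 on day 14 (-0.23 to 0.12).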
